A study of Mus musculus with 8 samples.

Results

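A set of 10 genes of Polycomb repressive complex 2 (PRC2), of DNA methylation and of its oxidation was followed in marginal zone B cells, B cells of the outer white pulp of the spleen that answer quickly to antigen carried in blood. They were taken by name from a table of 23997 genes, and all 10 were found there: Ezh2, Ezh1, Eed and Suz12 of PRC2, Dnmt1 and Uhrf1 of maintenance methylation, Dnmt3a and Dnmt3b of de novo methylation, and the dioxygenases Tet2 and Tet3. The study sequenced RNA of C57BL/6 mouse cells in 2 groups of 4 libraries. One group has the genotype label ACKR3+ and is titled GFPposi, and the other is ACKR3- and titled GFP-; the labels name no treatment, age or transgene driver. ACKR3 is an atypical chemokine receptor that takes up CXCL12.

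PRC2 places methyl groups on a lysine of histone H3 and thereby keeps genes silent. EZH2 or EZH1 is its catalytic subunit, and EED and SUZ12 are needed for either to work. EZH2 is the form that dividing cells use most, among them germinal center B cells, whereas EZH1 is common in resting cells. DNMT1 copies DNA methylation to the new strand after replication, guided by UHRF1, which binds half-methylated sites. DNMT3A and DNMT3B add methylation at new sites, and TET enzymes oxidise methylcytosine as a first step of its removal.

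Each gene has an estimated number of fragments in 2 pooled conditions, q1 and q2, and no value per library. Neither name matches a label, so q1 and q2 are not tied to ACKR3+ or ACKR3- cells and the differences carry no direction for ACKR3. Ackr3 itself had 1030 fragments in q1 against 149 in q2. The columns summed to 16877559 and 16653774 fragments; the depth of each library is unknown. The SDs given here come from the variances deposited with each count and are not a measured spread between mice, so no p-value can be given. The sources used here do not say if these variances describe single libraries or pooled values. Were they those of single libraries, the SDs of the pooled values would be smaller, and more genes could pass a rule of 2 SD. The labelled cell type has its markers in both columns, with 81167 and 70851 fragments for Cr2, the complement receptor abundant on marginal zone B cells. Log2 ratios are q2 over q1 with 1 fragment added to each count, and were read among the 9582 genes that reached 100 fragments in either column, which include all 10 genes.

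Uhrf1, Ezh2 and Dnmt1 were higher in q2, and the other 7 genes lay within 2 SD of equality. These 3 genes were at least 1.5-fold higher in q2, where 3.39% of the genes tested were, and they also exceeded 2 SD, as did 4.15% of genes. Uhrf1 alone was at least 2-fold higher in q2, against 1.84% of genes. None of the 10 was higher in q1 by any of these rules, which 1.58% of genes met at 1.5-fold, 0.438% at 2-fold and 2.11% at 2 SD. The median log2 ratio of the 10 genes was 0.09, beside 0.0005 for all genes tested.

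**Figure D1:**
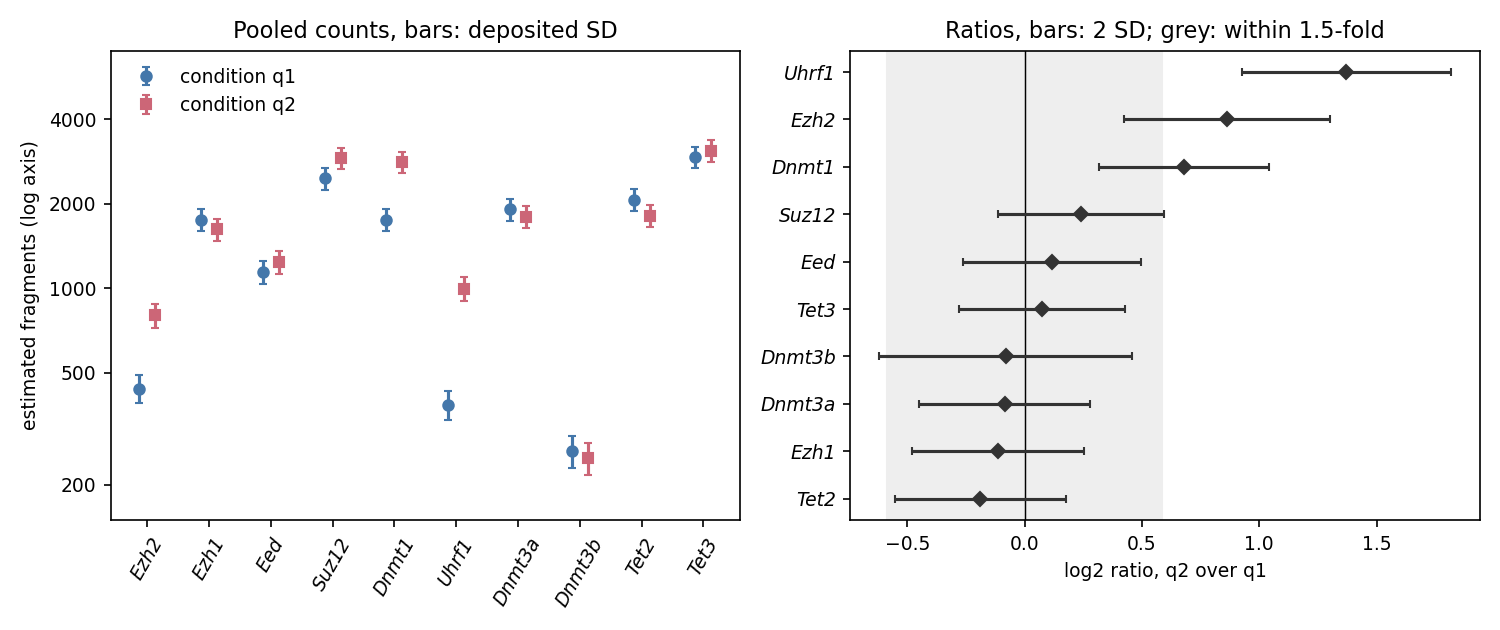
Left, estimated fragments of each gene in the pooled conditions q1 (circles) and q2 (squares) on a log axis, with the deposited SD as bars; right, the log2 ratio of q2 over q1 with bars of 2 SD and the range within 1.5-fold in grey. The bars of Uhrf1, Ezh2 and Dnmt1 stay above 0, and those of the other 7 genes include it.

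Maintenance methylation showed the widest difference. Uhrf1 (chromosome 17, 56303321 to 56323486, plus strand, GRCm38) had 385 ± 45.7 fragments in q1 against 998 ± 99.6 in q2 (deposited SD). This is a 2.59-fold difference, a log2 ratio of 1.37 ± 0.22, and 98.8% of genes tested had a lower ratio. Dnmt1 (chromosome 9, 20907209 to 20959888, minus strand) had 1755 ± 158 fragments in q1 against 2808 ± 245 in q2. It was thus 1.60-fold higher in q2, at 0.68 ± 0.18 on the log2 scale. Both partners were higher in the same column, but not to the same extent. Per kilobase of the longest transcript, Dnmt1 stood at 2.78 ± 0.41 times the level of Uhrf1 in q1 and at 1.72 ± 0.23 times in q2. The log2 ratio of Dnmt1 less that of Uhrf1 was -0.69 ± 0.29, so Uhrf1 was the further apart of the pair.

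De novo methyltransferases did not follow. Dnmt3a (chromosome 12, 3806007 to 3914443, plus strand) had 1908 ± 170 fragments in q1 against 1798 ± 161 in q2, with a log2 ratio of -0.09 ± 0.18. Dnmt3b (chromosome 2, 153649450 to 153687730, plus strand), the least abundant of the 10 genes, had 264 ± 34.9 and 249 ± 33.3 fragments, at -0.08 ± 0.27. The range of 2 SD around these log2 ratios ran from -0.45 to 0.28 for Dnmt3a and from -0.62 to 0.46 for Dnmt3b, so at this precision a 1.5-fold difference lies outside the range for Dnmt3a but inside it for Dnmt3b where q1 is the higher column. The log2 ratio of Dnmt1 exceeded that of Dnmt3a by 0.76 ± 0.26 and that of Dnmt3b by 0.76 ± 0.32. The log2 ratio of Dnmt3a less that of Dnmt3b was -0.01 ± 0.33. Of the summed level of the 3 methyltransferases per kilobase, Dnmt1 made up 53.7% ± 2.92 in q1 and 66.3% ± 2.57 in q2 with the longest transcript of each gene, but 12.3% ± 1.35 and 19.2% ± 1.91 with the median length of all transcripts. Its share was higher in q2 with either length, which follows from its log2 ratio being above those of Dnmt3a and Dnmt3b.

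Among the PRC2 genes, the catalytic subunits parted. Ezh2 (chromosome 6, 47530139 to 47595341, minus strand) had 440 ± 50.4 fragments in q1 against 802 ± 80.3 in q2. The difference was 1.82-fold, a log2 ratio of 0.86 ± 0.22, with a range of 2 SD from 0.43 to 1.30. Ezh1 (chromosome 11, 101191115 to 101226463, minus strand) had 1755 ± 157 fragments in q1 against 1624 ± 146 in q2, at -0.11 ± 0.18. The log2 ratio of Ezh2 exceeded that of Ezh1 by 0.98 ± 0.29, which is 3.42 times the SD of that difference. In both columns Ezh1 was the more abundant paralog per length. Ezh2 reached 0.38 ± 0.05 of the level of Ezh1 in q1 and 0.75 ± 0.10 in q2, and its share of the 2 paralogs was 27.5% ± 2.90 in q1 and 42.7% ± 3.30 in q2. Their sum stood at 575 ± 41.5 fragments per kilobase in q1 and 674 ± 45.2 in q2.

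The core partners of both enzymes were nearly level. Eed (chromosome 7, 89954654 to 89980983, minus strand), whose product reads the mark that PRC2 writes, had 1142 ± 107 fragments in q1 against 1238 ± 115 in q2, at 0.12 ± 0.19 on the log2 scale. Suz12 (chromosome 11, 79993106 to 80034123, plus strand), the scaffold of the complex, had 2459 ± 214 and 2902 ± 250 fragments, at 0.24 ± 0.18. After Uhrf1, Ezh2 and Dnmt1, Suz12 had the largest ratio, with 89.6% of genes tested below it, yet its range of 2 SD ran from -0.11 to 0.59. Per kilobase of the longest transcript, Suz12 and Eed were the most abundant of the 10 genes in both columns, with 562 ± 48.9 and 553 ± 51.9 in q1, and 664 ± 57.3 and 599 ± 55.6 in q2. The ranges of these neighbours, each value ± its SD, overlapped in both columns. With the median length of all annotated transcripts Suz12 stayed first, but Eed, at 1702 in q1 and 1845 in q2, came below Dnmt3a at 2325 and 2191 and Ezh1 at 2143 and 1982. Ezh2 stood at 0.29 ± 0.04 of the level of Eed in q1 and at 0.48 ± 0.07 in q2.

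Tet2 and Tet3 each differed by less than 2 SD between the columns. Tet2 (chromosome 3, 133463679 to 133545139, minus strand) had 2066 ± 183 fragments in q1 against 1813 ± 162 in q2, and its log2 ratio of -0.19 ± 0.18 was the lowest of the 10 genes. Tet3 (chromosome 6, 83362373 to 83459084, minus strand) had the highest count of the 10, with 2937 ± 255 fragments in q1 against 3089 ± 268 in q2, at 0.07 ± 0.18. The log2 ratio of Tet2 less that of Tet3 was -0.26 ± 0.25. Summed per kilobase, the TET genes stood at 494 ± 30.7 in q1 and 481 ± 30.2 in q2. Tet1, the remaining family member, taken from the list of related genes, was scarcer, with 293 fragments in q1 against 191 in q2, and its log2 ratio of -0.62 ± 0.28 put it at least 1.5-fold higher in q1.

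**Figure D2:**
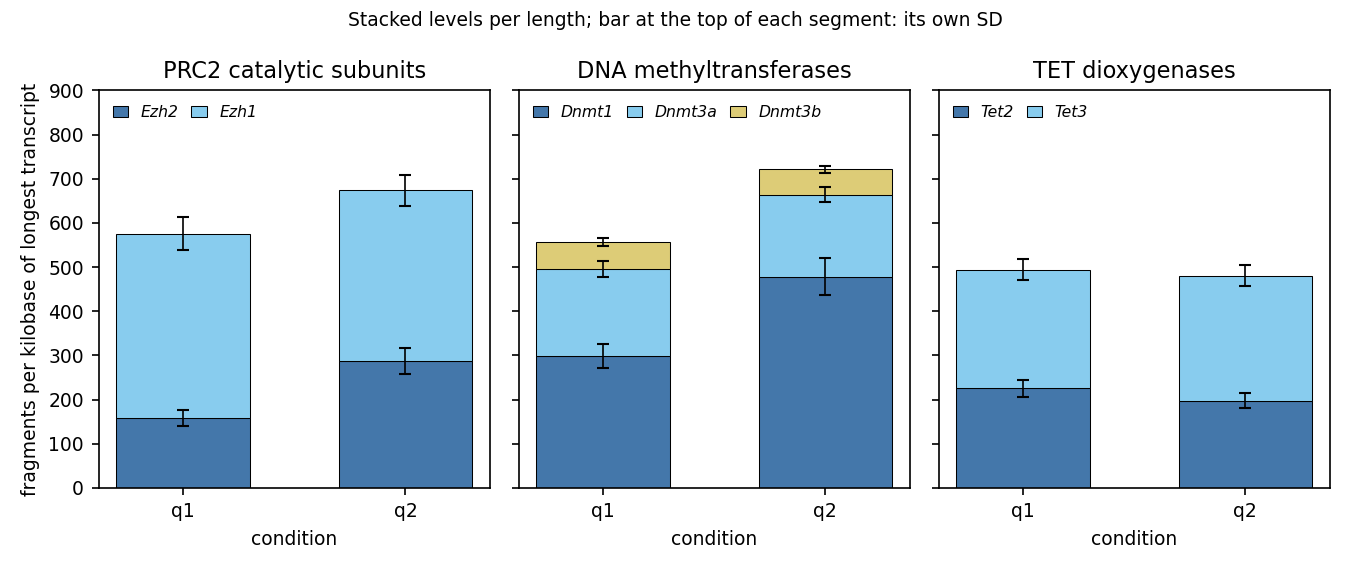
Fragments per kilobase of the longest transcript, stacked for the PRC2 catalytic subunits, the DNA methyltransferases and the TET genes in q1 and q2; the bar at the top of each segment is that segment's own SD. The Ezh2 segment goes from 158 to 288 and the Dnmt1 segment from 299 to 478 between q1 and q2, while the other segments differ by less than 2 of their SD.

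The order of the 10 genes per kilobase thus differed between the columns from the third place down. In q1 the order from the top was Suz12, Eed, Ezh1, Dnmt1, Tet3, Tet2, Dnmt3a, Ezh2, Uhrf1 and Dnmt3b. In q2 Suz12 and Eed were followed by Dnmt1 at 478 ± 41.7 and Ezh1 at 386 ± 34.8, and then by Ezh2, Tet3 and Uhrf1 at 288 ± 28.8, 283 ± 24.5 and 278 ± 27.8, which are not separated beyond their SD. Tet2 and Dnmt3a came next, at 197 ± 17.7 and 186 ± 16.6, also within their SD, and Dnmt3b was last in both columns, with 61.1 ± 8.08 in q1 and 57.7 ± 7.70 in q2. These levels rest on the transcript length used: with the median length of all annotated transcripts, many of them short, Dnmt3a came out above Dnmt1 and Tet2 above Tet3 in both columns. The ratio of q2 over q1 of a gene does not depend on its length.

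**Figure D3:**
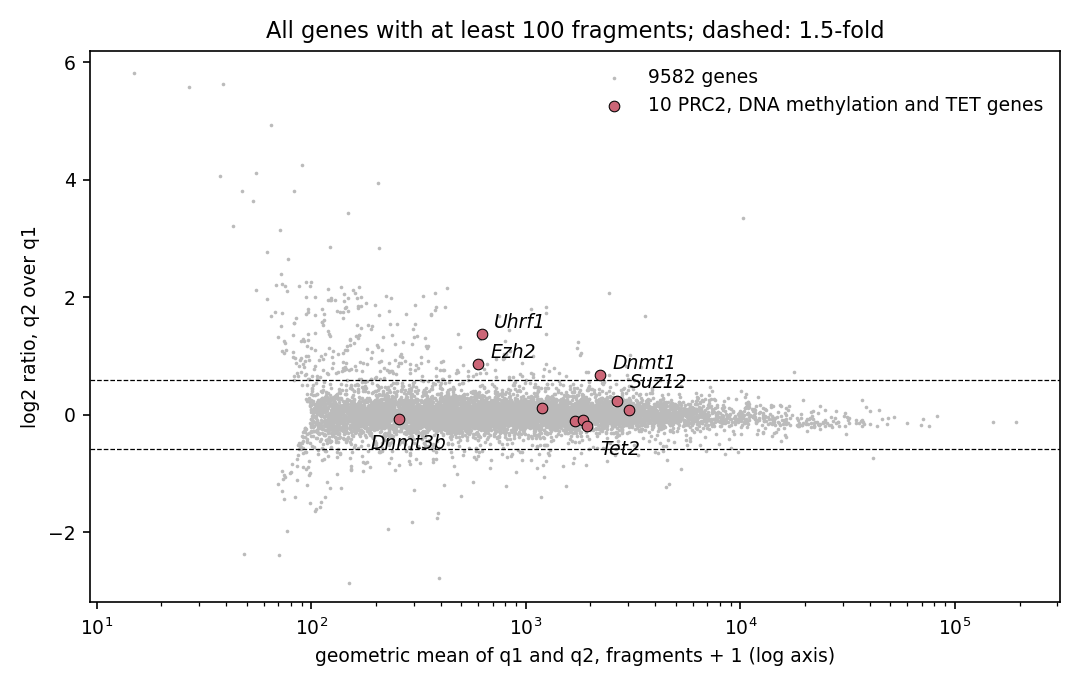
Log2 ratio of q2 over q1 against the geometric mean of both columns (log axis) for the 9582 genes tested (grey) and the 10 genes (outlined); dashed lines mark 1.5-fold. Uhrf1, Ezh2 and Dnmt1 lie above the upper line and the other 7 genes lie between the lines, within the cloud.

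Promoter sequences of the 10 genes were compared as a description. In RefSeq windows of 250 bases before to 50 after an annotated start (GRCm38.p6), all 10 genes matched, with 15 windows since some genes have several starts. Sites for E2F factors, which drive genes of the G1 to S transition, were searched as TTTCCCGC, TTTGGCGC, TTTCGCGC and TTTGCCGC on both strands. Such letters occurred in 4 of the 10 genes, Ezh2, Suz12, Dnmt1 and Uhrf1. These have the 4 highest ratios, but the place of Suz12 at 0.24 ± 0.18 is not resolved. Eed at 0.12 ± 0.19 and Tet3 at 0.07 ± 0.18 lie within its SD. Of all 27025 genes with a window, tested or not, 2.61% hold the letters, as do 2.27% of all 32851 windows. They were more common among the genes tested that had a window, in 375 against 7009 without them. The letters contain CpG, and the windows with a match held 31 to 41 CpG, against a median of 7 over all windows. The shares were not matched for CpG, and a link of the letters to the ratios was not tested. The 5 matches are shown with the bases around them, 30 in all, written 5′ to 3′ on the strand of the gene, with the match in capitals.
Ezh2, chr6:47595009-47595038, minus strand, match from base 4 after the start: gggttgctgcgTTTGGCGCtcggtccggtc
Suz12, chr11:79992876-79992905, plus strand, match from base -219: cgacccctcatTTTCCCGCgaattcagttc
Dnmt1, chr9:20952824-20952853, minus strand, the third start, match from base -219 on the opposite strand: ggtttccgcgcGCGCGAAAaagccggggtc
Dnmt1, chr9:20952574-20952603, minus strand, the third start, match from base 34: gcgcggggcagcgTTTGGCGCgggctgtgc
Uhrf1, chr17:56304117-56304146, plus strand, the second start, match from base -185: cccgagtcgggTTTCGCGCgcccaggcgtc

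The match of Uhrf1, the gene with the widest difference, lies in a stretch that holds no annotated exon of the gene. The 250 bases before its second start, chr17:56304063-56304312 on the plus strand, are shown with the E2F letters in capitals.
Uhrf1: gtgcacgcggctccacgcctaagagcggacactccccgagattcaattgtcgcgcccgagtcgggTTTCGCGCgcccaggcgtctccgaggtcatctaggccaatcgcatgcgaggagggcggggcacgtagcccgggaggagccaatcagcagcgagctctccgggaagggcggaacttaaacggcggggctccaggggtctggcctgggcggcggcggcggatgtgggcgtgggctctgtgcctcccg

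Other letters, also searched on both strands, were more common among all windows. CCAAT, the core bound by NF-Y, was in 53.3% of the 15 windows (6 of the 10 genes) and in 37.4% of all windows. The Sp1 core GGGCGG was in 66.7% of the 15 windows (7 genes) and in 35.7% of all. TTTGAA, the core of a motif of mitotic genes, was in 26.7% of the 15 windows (4 genes, Eed, Suz12, Dnmt1 and Dnmt3b) and in 17.9% of all. The E2F matches share no base with a match of another motif. A match describes the letters only and shows no binding. Across the genes tested that had a window, 375 held the E2F letters, with a median log2 ratio of 0.04 and 8.0% at least 1.5-fold higher in q2. The 7009 genes without them had a median of -0.001 and 3.18%. The 375 include Ezh2, Suz12, Dnmt1 and Uhrf1 themselves, and the comparison was not matched for CpG or count. Suz12 holds the letters with a ratio inside 2 SD.

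Genes of DNA replication and mitosis were higher in q2 beside Uhrf1, Ezh2 and Dnmt1. Of 25 replication genes, 22 reached 100 fragments and all 22 had a higher count in q2, as did 50.16% of all genes tested. The difference was at least 1.5-fold for 16 of them, against 3.39% of all genes tested, and the median log2 ratio was 0.79. Among them Rrm2, a subunit of ribonucleotide reductase, stood at 1.83 ± 0.26, the licensing factor Cdc6 at 1.72 ± 0.37 and Mcm10 at 1.58 ± 0.37. Pcna, the sliding clamp of replication, had 1656 and 2218 fragments, at 0.42 ± 0.18. Ezh2 lay in the middle of that list, with 10 replication genes above it and 12 below. Dnmt1 had 13 above it and 9 below, and Uhrf1 had 3 above it and 19 below. Each of the 18 mitosis genes passed 1.5-fold toward q2, with a median log2 ratio of 1.87. The proliferation antigen Mki67 had 1190 and 4991 fragments, at 2.07 ± 0.19, and the largest ratios were those of Ube2c at 2.19 ± 0.40, Cdk1 at 2.13 ± 0.38 and Kif11 at 2.07 ± 0.26. Ezh2 and Dnmt1 lay below every mitosis gene and Uhrf1 below 16 of 18. The lowest mitosis gene, Aurka at 0.87 ± 0.35, was within its SD of both Ezh2 and Dnmt1. Ezh1, Dnmt3a, Dnmt3b, Tet2 and Tet3 lay below all of the replication genes. The lowest replication gene, Tyms at 0.09 ± 0.20, was within its SD of Tet3, Dnmt3a and Dnmt3b.

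Regulators of the cell cycle were more mixed. They were listed as the E2F and RB families together with Mybl2, Lin54 and Foxm1, which belong to neither family. Of 15 listed genes with 100 fragments, 4 were at least 1.5-fold higher in q2, as were 3.39% of all genes tested. None was so in q1, against 1.58% of all, and the median log2 ratio was 0.22. The 4 were the repressor E2f8 at 1.95 ± 0.37, the mitotic activator Foxm1 at 1.34 ± 0.26, Mybl2 at 0.70 ± 0.26 and the pocket protein Rbl1 at 0.65 ± 0.21. The activator E2f1 stood at 0.23 ± 0.27.

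**Figure D4:**
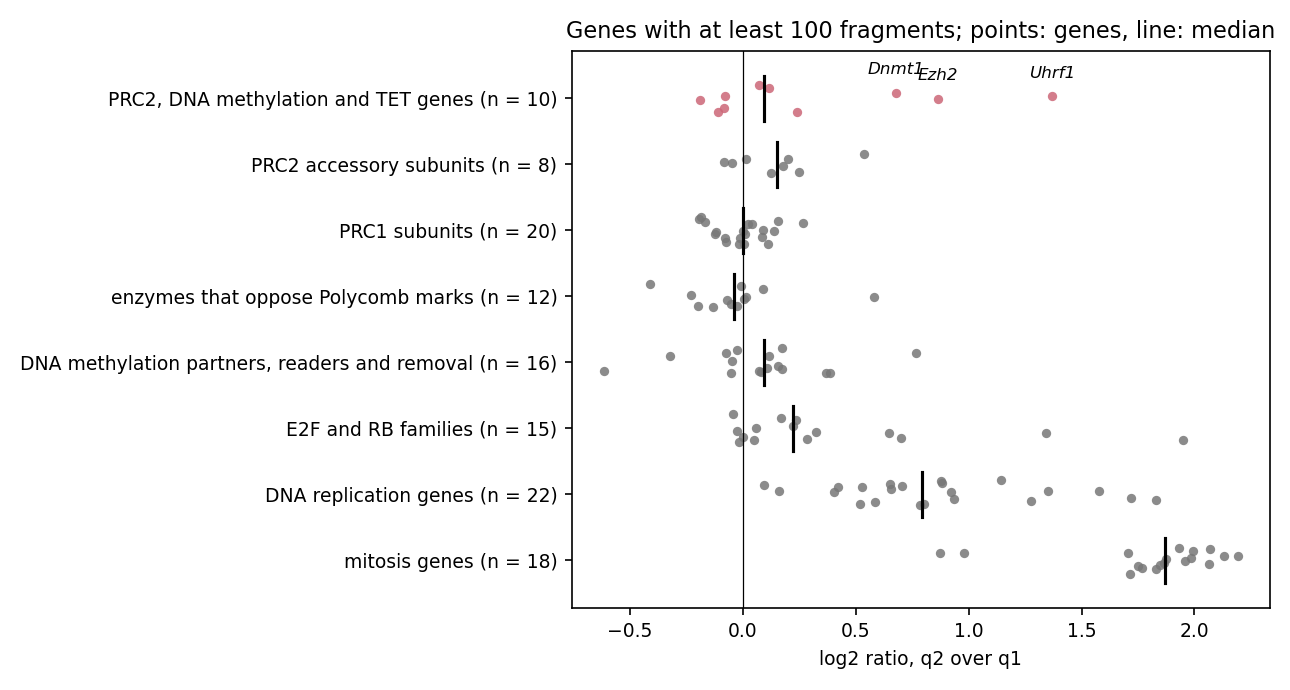
Log2 ratio of q2 over q1 of each gene with at least 100 fragments (points), by list, with the list's median as a line. Replication and mitosis genes have medians of 0.79 and 1.87, whereas PRC1 subunits centre on 0.00 and lie within 1.5-fold.

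Other parts of the Polycomb system were close to equal. Their counts by direction stand beside 50.16% of all genes tested that were higher in q2. Counts at 1.5-fold stand beside 3.39% of all genes toward q2 and 1.58% toward q1, and those past 2 SD beside 4.15% and 2.11%. Of 10 PRC2 accessory genes, 8 reached 100 fragments, 6 were higher in q2 and 2 in q1, none by 1.5-fold, with a median log2 ratio of 0.15. Phf19, which recruits PRC2 to chromatin, had the largest ratio, 0.53 ± 0.23, with 416 and 602 fragments, and passed 2 SD. The histone-binding subunits Rbbp4 and Rbbp7 stood at 0.25 ± 0.18 and 0.18 ± 0.27, and Mtf2, a relative of Phf19, at 0.20 ± 0.19. The 20 PRC1 subunits with 100 fragments, which belong to the complex that ubiquitinates histone H2A, had a median of 0.00, 11 higher in q2 and 9 in q1, none by 1.5-fold or 2 SD. The ends of their range were Rnf2, a catalytic subunit, at 0.26 ± 0.20 and Scmh1 and Phc2, both at -0.19, with SDs of 0.22 and 0.18. Ring1, the alternative catalytic subunit, stood at -0.17 ± 0.21.

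Enzymes that oppose Polycomb marks also centred near 0, with a median of -0.04 over 12 genes and none 1.5-fold apart. Kdm6b, a demethylase of the PRC2 mark, had 2264 fragments in q1 against 1701 in q2, at -0.41 ± 0.18, and was the one that passed 2 SD toward q1. Its relative Kdm6a stood at -0.23 ± 0.18 and the methyltransferase Kmt2d at -0.20 ± 0.20. Whsc1 (Nsd2), which methylates another lysine of histone H3, had 1163 and 1741 fragments, at 0.58 ± 0.19, and passed 2 SD toward q2. Of 16 partners, readers and removal factors of DNA methylation with 100 fragments, Hells was at least 1.5-fold higher in q2 and Tet1 in q1. Of all genes tested, 3.39% were so in q2 and 1.58% in q1. Hells, a remodeler needed for methylation of repeats, had 365 and 621 fragments, at 0.77 ± 0.23. The methyl-CpG binding genes Mbd2 and Mbd4 stood at 0.38 ± 0.18 and 0.37 ± 0.20, of which Mbd2 passed 2 SD, and the list's median was 0.09. Uhrf2, the paralog of Uhrf1, had 1190 and 1283 fragments, at 0.11 ± 0.19.

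Genes reported as EZH2 targets in germinal center B cells gave few values. Cdkn1b had a log2 ratio of 0.17 ± 0.18, Prdm1 of 0.25 ± 0.24 and Irf4 of -0.28 ± 0.18, so none of the 3 with 100 fragments passed 1.5-fold or 2 SD. Cdkn1a had 3.50 fragments in q1 and 12.9 in q2 and Cdkn2a 0.84 and 3.97, too few to compare.

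Markers of other B cell states also differed between the columns. Counts at 1.5-fold or more stand beside 3.39% of all genes tested toward q2 and 1.58% toward q1. Of all genes tested, 50.16% had the higher count in q2. All 10 germinal center markers in the table were at least 1.5-fold higher in q2, summing to 806 fragments in q1 against 3265 in q2, and none was at 0. Bcl6, the factor that defines germinal center B cells and works with PRC2, had 553 and 1130 fragments. Of 9 plasma cell markers, 7 were at least 1.5-fold higher in q2, whereas Prdm1 stood at 0.25 ± 0.24 and Irf4 at -0.28 ± 0.18. The 9 summed to 18748 and 55376, and most of that difference came from Igj, with 3234 and 33006 fragments. All 10 marginal zone markers had the higher count in q1, 5 at 1.5-fold or more, with sums of 163244 and 133717, and 6 general B cell markers had a median of -0.10. Of 6 follicular B cell markers, 4 were past 1.5-fold toward q2, led by Fcer2a at 1.73 ± 0.20, with sums of 14346 and 17379. Of 6 macrophage markers with 100 fragments, 4 were past 1.5-fold toward q1 and 1, Emr1, toward q2, and the sum of all 10 was 1197 and 670. The 7 T cell markers in the table summed to 716 and 963, mostly from Lck with 524 and 689, and Cd3e had 22.8 and 36.4 fragments. None of the germinal center, plasma cell, follicular, macrophage and T cell markers in the table was at 0 in both columns. These data are from bulk RNA, in which fewer cells of a type and less RNA per cell cannot be told apart, and the part of such cells in the values of Uhrf1, Ezh2 and Dnmt1 was not tested.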

How the data were processed

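RNA libraries of marginal zone B cells were made from Trizol extracts with an Illumina TruSeq kit, per the labels' protocols; whether it kept strand is not stated. Per the submitters' processing notes, cutadapt 1.8.1, TopHat2 2.0.14 and Cuffdiff 2.2.1 were used with mm10; annotation and filters: not given in the sources used here. The authors deposited estimated counts of fragments per gene for conditions q1 and q2, each pooled over its libraries, with count variances, per the file headers. Counts are not whole (2.12% of those above 0 in q1 lie within 0.01 of a whole number) and the scaling between columns is not stated. The variance part for isoform assignment was 0 for every gene, and the SD of the 10 genes was 8.63% to 13.3% of the count, at 0.991 to 1.04 times a running median (window of 101 genes) by count, so it follows the count and not the gene.

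Log2 ratios used a pseudocount of 1, and a first-order (delta method) SD was computed from the variances as deposited. Genes reaching 100 fragments in q1 or q2 were read by size rules of 1.5-fold, 2-fold and 2 SD. With 1 value per condition no test was run. Positions and transcript lengths are from GENCODE M21 (GRCm38), matched by symbol for 22694 genes and through a RefSeq synonym for 938. In it the exons of Eed share 6.82% of their bases with E230029C05Rik on the opposite strand (6.71 and 3.32 fragments), and those of Ezh2, Suz12, Dnmt3a and Tet2 share 0.25% to 3.60% with antisense genes; without stated strand, such reads cannot be told apart. Promoter windows are from RefSeq (GRCm38.p6). Named genes were the 10, Ackr3, Mki67, Pcna and the 4 largest absolute ratios of each list, of which 1 is not reported here; other genes, among them Cr2, Bcl6, E2f1, Uhrf2, Fcer2a, Emr1, Lck and Cd3e, were chosen after their values were seen. The 10 genes, the lists and the motifs were chosen with earlier results of these data known. The ratio and its SD were tested on simulated data. Calculations used Python 3.11.15, numpy 2.4.6, pandas 2.3.3 and scipy 1.17.1.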

Additional observations from a re-analysis of the deposited data

How the results depend on the processing

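No paired analysis was possible because the libraries of q1 and of q2 are pooled and unnumbered in the table. Leaving out a library was thus not possible either, and the edgeR, DESeq2 and replicate alternatives were not run. Under pseudocounts of 0 and 10, scaling by totals or by median ratio, a correction for GC, length and mean count, and minimums of 20 and 500 fragments, the counts of the 10 genes past each size rule were the same. With a minimum of 500, which drops Dnmt3b, the share of all genes at least 1.5-fold higher in q2 was 1.55%, and with 20 it was 5.36%. Log2 ratios ranged from 1.35 to 1.42 for Uhrf1, 0.79 to 0.88 for Ezh2 and 0.68 to 0.72 for Dnmt1; of 50 recomputed ratios, 1 left its counting interval (Tet3, 0.15 corrected). Levels per kilobase depend on the length used. With the median length of all transcripts, Dnmt1 over Dnmt3a reversed to 0.144 in q1 and 0.244 in q2, and Tet2 over Tet3 was 1.41 and reversed to 1.18. Ezh2 over Ezh1 became 0.237 and 0.467, Ezh2 over Suz12 0.130 and 0.201, and Dnmt3a over Dnmt3b 36.1 and 36.02. The shares became 19.2% and 31.8% for Ezh2, 12.3% and 19.2% for Dnmt1 and 58.6% and 54.1% for Tet2. With the median length of coding transcripts, chosen after seeing the data, Dnmt1 over Dnmt3a was 1.19 and 2.03, Dnmt3a over Dnmt3b 4.23 and 4.21, Tet2 over Tet3 0.651 and 0.543, the Dnmt1 share 49.1% and 62.1% and the Tet2 share 39.4% and 35.2%. The lengths alone make these changes. The direction of each share between q1 and q2 was the same under the 3 lengths. It could not have differed, because a fixed length cancels in the ratio of q2 over q1 of each gene. Depth limits Dnmt3b most, the gene with the widest SD of the ratio.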
